A study of Mus musculus with 6 samples.

Results

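The genes described are 9 of the 52550 gene identifiers in the count files, Mbp, Mog, Mag, Mobp, Mal, Cnp, Cldn11, Opalin and Ermn, chosen by name as structural myelin and mature oligodendrocyte genes and matched to their identifiers through GENCODE vM21. Hippocampal RNA was sequenced from young adult male mice of the breed C57BL / 6, with 3 sham libraries (Sham1 to Sham3) and 3 traumatic brain injury libraries (TBI1 to TBI3), 1 mouse each, all collected 24 h after surgery. TBI was made by controlled cortical impact, in which a driven tip strikes the exposed cortex, and sham mice went through anaesthesia and skull opening without the impact. Both groups therefore share the surgery, no allele or transgene was used, and the comparison asks which hippocampal transcripts differ with the impact.

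Oligodendrocytes are the glial cells that wrap axons of the central nervous system in myelin, a stack of membranes that insulates the axon and speeds conduction. They arise from oligodendrocyte precursor cells (OPCs), which pass through a committed stage before they make the myelin proteins, and the transcription factors Olig2, Sox10 and Myrf drive this course. In the hippocampus, myelin lies mainly in the fibre tracts such as the alveus and fimbria and less densely between the neurons.

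The bases upstream of the RefSeq start of 4 members are shown first, because they hold words read by the factors named above. The core word of MYRF was searched as CTGGCAC or CTGGTAC and a word of the SOX family as ACAAAG, on both strands of the 250 bases before the start (RefSeq, GRCm38.p6), and capitals mark the matches. For Mag, which has 3 windows listed, the one nearest to the GENCODE start was used.
Mog, chr17:37023399-37023648, minus strand: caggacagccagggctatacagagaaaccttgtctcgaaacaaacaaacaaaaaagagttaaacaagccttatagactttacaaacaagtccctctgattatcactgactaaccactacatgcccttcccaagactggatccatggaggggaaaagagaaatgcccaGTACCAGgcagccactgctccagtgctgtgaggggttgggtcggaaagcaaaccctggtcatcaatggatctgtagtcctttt
Mag, chr7:30914864-30915113, minus strand: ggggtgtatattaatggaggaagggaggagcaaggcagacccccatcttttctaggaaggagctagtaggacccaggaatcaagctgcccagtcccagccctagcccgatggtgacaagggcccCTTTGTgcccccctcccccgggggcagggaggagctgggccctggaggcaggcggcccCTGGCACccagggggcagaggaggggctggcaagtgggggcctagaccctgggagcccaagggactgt
Cnp, chr11:100574689-100574938, plus strand: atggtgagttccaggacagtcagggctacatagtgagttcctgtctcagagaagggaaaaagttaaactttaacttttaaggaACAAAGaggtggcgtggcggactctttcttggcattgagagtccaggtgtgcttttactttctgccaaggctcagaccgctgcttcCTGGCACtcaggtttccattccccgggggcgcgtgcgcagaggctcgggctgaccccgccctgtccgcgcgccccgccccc
Mobp, chr9:120149492-120149741, plus strand: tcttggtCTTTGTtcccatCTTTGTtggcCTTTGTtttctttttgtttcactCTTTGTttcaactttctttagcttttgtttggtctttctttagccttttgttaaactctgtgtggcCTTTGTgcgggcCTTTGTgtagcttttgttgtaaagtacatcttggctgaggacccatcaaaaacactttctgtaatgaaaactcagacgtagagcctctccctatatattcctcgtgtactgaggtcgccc
A MYRF word was present in 3 of the 8 members with a window (Mog 83, Mag 68 and Cnp 81 bases before the start), and 5.93% of all 32851 windows hold one. The word ACAAAG was present in 4 of 8 (Mag, Mobp with 6 matches, Cnp and Opalin), against 16.5% of all windows. The E-box CAGCTG, a word of OLIG2 and related factors, was in 0 of 8 and in 13% of all windows. The windows of Mal, Cldn11 and Ermn held none of these words. A match is a description of these letters and not a binding site.

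Before the comparison, 2 libraries have to be described, because they stand apart from the others of their group. The library labelled Sham2 held the highest level of 3 injury genes, which were chosen after their values were seen. Gfap, the intermediate filament of reactive astrocytes, stood at 4055 CPM (counts scaled to a common library total) in Sham2, at 623 and 632 CPM in Sham1 and Sham3, and at 541 to 1478 CPM in the TBI libraries. Timp1, a metalloproteinase inhibitor, stood at 76.8 CPM in Sham2 and at most at 8.89 CPM in the other libraries, and Cd44, an adhesion receptor of reactive glia, at 135 CPM against 3.09 to 24.6 CPM. In these genes Sham2 goes against its label. TBI1 held 7 striatal marker genes at a summed 4720 CPM, against 150 to 222 CPM in the other 5 libraries. The comparison of the members is therefore given with and without Sham2, and then also without TBI1. Total counts were 31630936 to 41771872 per library, and the members had 962 to 132261 estimated counts in each.

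No difference between TBI and sham was detected for any member. Mean levels were higher in TBI for 8 of 9 members and lower for Opalin, and the log2 fold changes ran from -0.01 (Opalin) to 0.61 (Mobp), but each 95% interval contained 0. The adjusted p of the members was 0.982 to 0.999 in the quasi-likelihood test of edgeR (Benjamini-Hochberg), and 0 of 9 passed the call rule (p under 0.05, adjusted p under 0.1, fold change over 1.5 in either direction), which 0.0% of the 18795 genes tested passed. At an unadjusted p under 0.05, 0 of 9 members and 4.29% of the genes tested were found, 2.16% higher and 2.13% lower in TBI. DESeq2 with its defaults called 0 of 9 members and 0.164% of 28118 genes. In bulk tissue, fewer cells of a type and less RNA per cell cannot be told apart.

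The spread behind these intervals lay in the sham group. All 9 members were lowest in Sham2, a library that was the lowest of the 6 for 23.0% of the genes tested. In Sham2 each of the 9 stood below 0.5 times the mean of Sham1 and Sham3, as did 9.56% of the genes tested, and 7 of 9 lay more than 2-fold below the lowest of the other 5 libraries, as did 3.37% of the genes tested. The coefficient of variation was 37.5% to 66.7% among the sham libraries and 4.49% to 17.5% among the TBI libraries. The 9 genes together took 0.221% of all counts in Sham2 and 0.602% to 0.766% in the other libraries, and no member was lowest in any library but Sham2.

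**Figure D1:**
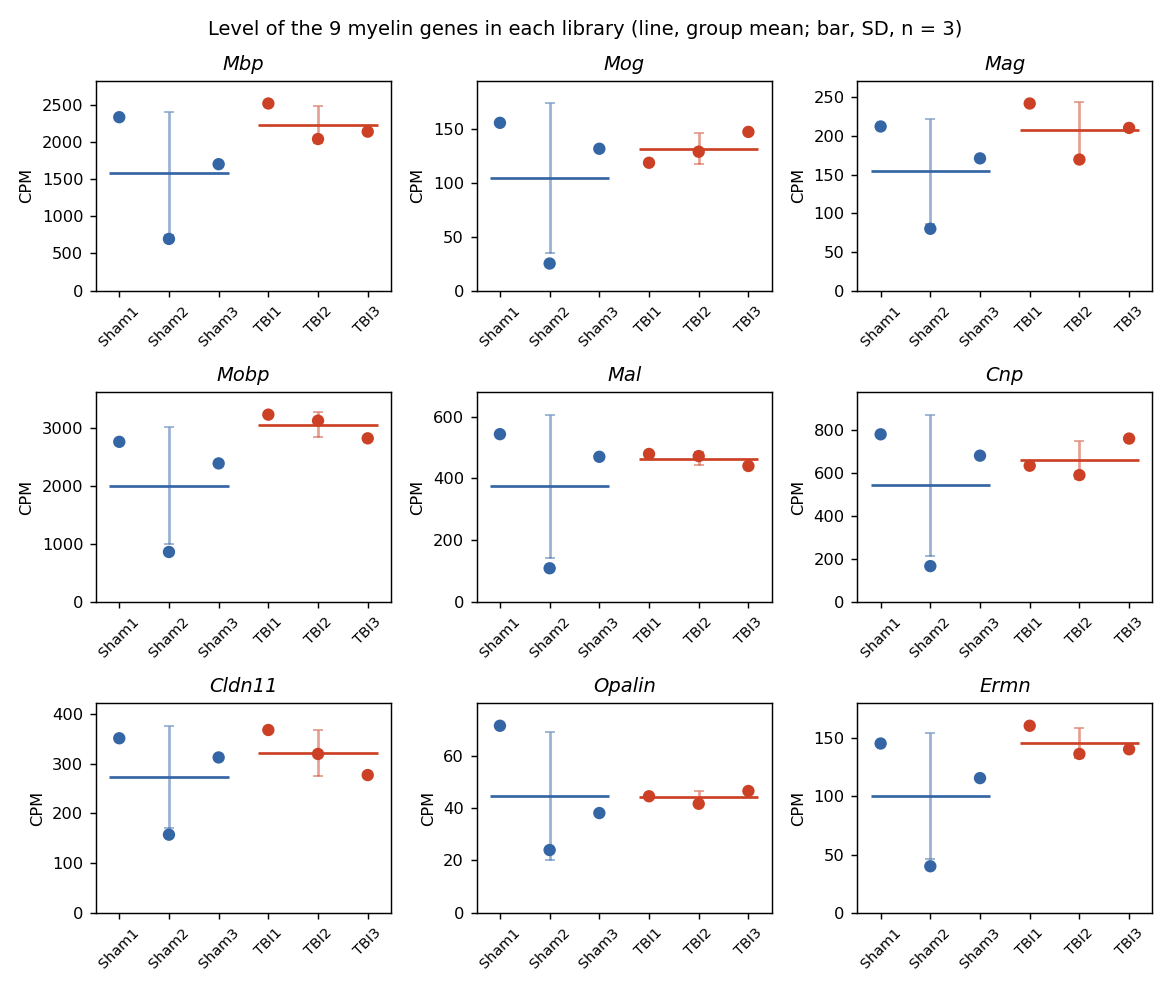
Level of each of the 9 myelin genes in CPM (linear axis from 0) in each library, with sham in blue and TBI in red; lines are group means and bars the SD (n = 3). In every panel Sham2 is the lowest point, and only for Mobp do all TBI points lie above all sham points.

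Mbp and Mobp encode small basic proteins that hold the cytoplasmic faces of compact myelin together, and they were the most abundant members. Mbp (ENSMUSG00000041607.16, chromosome 18, 82475146 to 82585637, plus strand, GRCm38) stood at 2334, 696 and 1702 CPM in Sham1, Sham2 and Sham3 and at 2518, 2040 and 2139 CPM in TBI1, TBI2 and TBI3. The TBI libraries lay close together, and Sham1 lay between them, so the groups overlapped. Sham averaged 1577 ± 826 CPM and TBI 2233 ± 252 CPM (SD, n = 3), a log2 fold change of 0.50 (SE 0.401). Mobp (ENSMUSG00000032517.16, chromosome 9, 120149707 to 120181484, plus strand) stood at 2769, 862 and 2395 CPM in the sham libraries and at 3240, 3135 and 2829 CPM in the TBI libraries. Mobp was the 1 member whose groups did not overlap, and 10.2% of the genes tested had groups that did not overlap, 4.77% with TBI higher. Its log2 fold change was 0.61 (SE 0.397, 95% interval -0.34 to 1.56), and the unadjusted edgeR p of 0.169 was the smallest among the members.

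Mal and Cldn11 encode membrane proteins of the sheath: Mal is a raft proteolipid that takes part in sorting membrane to myelin, and Cldn11 is the claudin of the tight junctions between myelin layers. Mal (ENSMUSG00000027375.14, chromosome 2, 127633226 to 127656695, minus strand) stood at 544, 109 and 470 CPM in sham and 480, 473 and 441 CPM in TBI. Apart from Sham2 the levels of Mal lay in a narrow band, with a ratio of highest to lowest of 1.23 over those 5 libraries. The log2 fold change of Mal was 0.31 (SE 0.524). For Cldn11 (ENSMUSG00000037625.7, chromosome 3, 31149920 to 31164324, plus strand), the sham libraries gave 351, 157 and 312 CPM and the TBI libraries 367, 319 and 277 CPM. Cldn11 was the member least reduced in Sham2, at 0.474 times the mean of Sham1 and Sham3, and its groups overlapped, with TBI3 below both of those sham libraries. Its log2 fold change was 0.23 (SE 0.297).

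Mog and Mag encode adhesion molecules of the immunoglobulin family at the outermost and the innermost surface of the sheath. Mog (ENSMUSG00000076439.12, chromosome 17, 37010743 to 37023398, minus strand) stood at 156, 25.1 and 132 CPM in sham and at 119, 129 and 147 CPM in TBI. The level in Sham2 relative to the other sham libraries was lowest for Mog, at 0.175 times the mean of Sham1 and Sham3, and Sham1 was higher than every TBI library. The log2 fold change was 0.34 with the widest interval of the members, -1.06 to 1.73. Mag (ENSMUSG00000036634.15, chromosome 7, 30899176 to 30914873, minus strand) stood at 212, 80.0 and 171 CPM in sham and at 242, 170 and 211 CPM in TBI. TBI2 was level with Sham3 and TBI3 with Sham1, and the log2 fold change was 0.43 (SE 0.348).

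Cnp, Opalin and Ermn are further products of the mature cell. Cnp, the cyclic nucleotide phosphodiesterase of non-compact myelin (ENSMUSG00000006782.16, chromosome 11, 100574904 to 100591729, plus strand), stood at 781, 166 and 681 CPM in sham and at 634, 591 and 761 CPM in TBI. Sham1 was the highest library and the groups overlapped, with a log2 fold change of 0.29 (SE 0.513). Opalin, a transmembrane glycoprotein of oligodendrocytes (ENSMUSG00000050121.8, chromosome 19, 41061710 to 41077113, minus strand), stood at 71.4, 24.0 and 38.1 CPM in sham and at 44.5, 41.6 and 46.5 CPM in TBI. Opalin was the least abundant member, and the only one for which Sham1 also lay well apart from Sham3. Its means were equal within 1 CPM, 44.5 ± 24.3 in sham and 44.2 ± 2.45 in TBI (SD, n = 3). Ermn, an actin-binding protein of late oligodendrocytes (ENSMUSG00000026830.9, chromosome 2, 58045113 to 58052864, minus strand), stood at 145, 40.0 and 115 CPM in sham and at 160, 136 and 140 CPM in TBI. Only Sham1 reached into the TBI range, and the log2 fold change of Ermn was 0.54 (SE 0.427).

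Without Sham2 fewer members were higher in TBI. The log2 fold change was above 0 for 4 members (Mbp 0.15, Mag 0.11, Mobp 0.25 and Ermn 0.16) and below 0 for the other 5, from -0.05 for Cldn11 to -0.31 for Opalin. The median over the 9 was 0.34 with all libraries, where all genes tested had a median of 0.01, and -0.05 without Sham2, where it was 0.03. The 95% intervals of the 5 members below 0 and the 4 above 0 all contained 0. They ran from -0.97 to 0.36 for Opalin and from -0.51 to 0.59 over the other 8. With all libraries the intervals ran from -1.06 to 1.73 over the 9. Sham2 was the lowest library for all 9 and was singled out after its values were seen. The narrower intervals therefore set no bound on the difference. Mobp was again the 1 member whose groups did not overlap, against 20.4% of the genes tested in those 5 libraries, with an unadjusted p of 0.0847 and an adjusted p of 0.997 (edgeR). Again 0 of 9 members had an unadjusted p under 0.05, against 3.39% of the genes tested. Leaving out TBI1 as well gave 3 members above 0 and 6 below, with a median of -0.06.

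**Figure D2:**
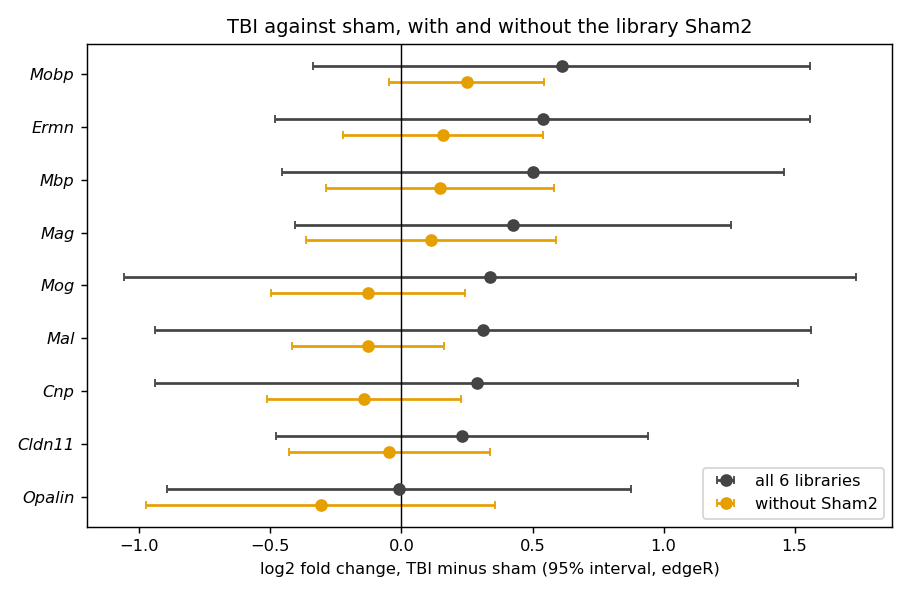
Log2 fold change of TBI minus sham for each member with its 95% interval from edgeR, for all 6 libraries (grey) and without Sham2 (orange). Each interval crosses 0, the intervals are narrower without Sham2, and the 9 points then lie between -0.31 and 0.25.

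Mobp was the highest and Opalin the lowest member in each library. On a TPM scale, computed from the counts and the exonic length, Mobp was the highest member with 1172 (rank 71 of 52403 genes, mean of 6 libraries), followed by Mbp with 711. Cnp, Cldn11 and Mal came next with 524, 503 and 477 on the same scale, and these neighbours did not differ beyond their spread, since the SD of each among the sham libraries was 279, 162 and 258. Mog stood at 219, Mag at 141, Ermn at 107 and Opalin at 47.6. The order also differed in Sham2, where Cldn11 (279) stood just above Mbp (273) and Mag (65.2) above Mog (49.0).

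Each member was also set against the mean log2 CPM of the 9 genes in the same library. The fall in Sham2 was not equal among the members on this scale: Mog lay at -2.18 in Sham2 and at -1.70 to -1.30 in the other libraries, and Cldn11 at 0.46 against -0.40 to -0.06. Mobp lay 2.75, 2.92 and 2.88 above that mean in the sham libraries and 3.07, 3.18 and 2.96 above it in the TBI libraries. Ermn lay between -1.51 and -1.49 in sham and at -1.26, -1.34 and -1.38 in TBI. These 2 members had groups that did not overlap on this scale, as did 7.2% of the genes tested. That share is not a like background, because the low mean of the members in Sham2 lifts other genes there on this scale. The differences were 0.22 for Mobp and 0.17 for Ermn, each with an exact two-sided permutation p of 0.1. That is the smallest that 3 against 3 libraries allow, and groups that do not overlap always give it. Opalin moved the other way, by -0.42, but its sham libraries were spread from -3.09 to -2.25 and the exact permutation p was 0.3. The differences of the other 6 members ran from -0.25 (Cldn11) to 0.15 (Mog).

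**Figure D3:**
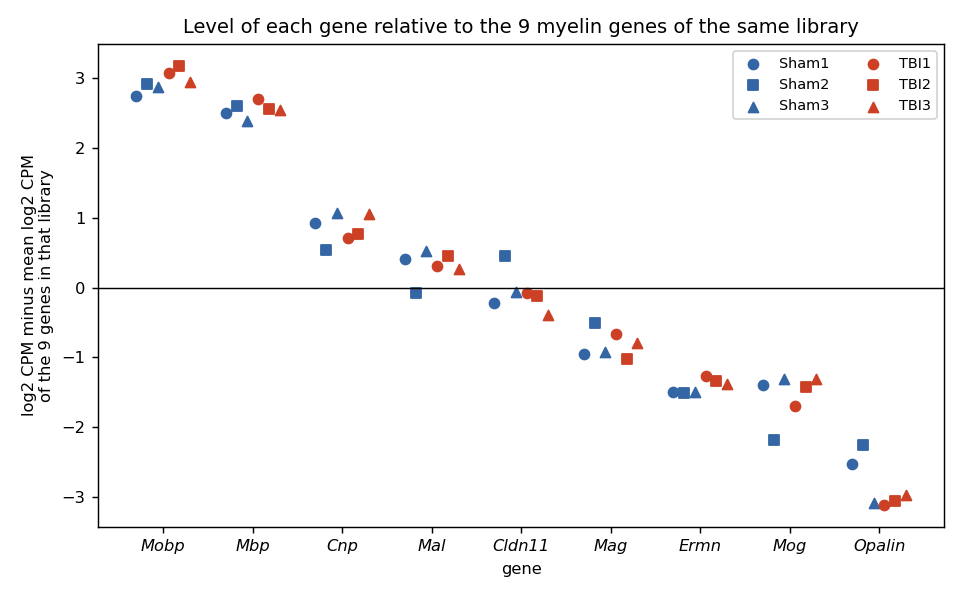
Log2 CPM of each member minus the mean log2 CPM of the 9 members in the same library, with sham in blue and TBI in red and the marker shape giving the library. Sham2 lies apart from the other 5 libraries for Mog, Mal and Cnp (lower) and for Mag, Cldn11 and Opalin (higher). Only Mobp and Ermn have TBI points that all lie above the sham points.

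Other oligodendrocyte genes were taken from 5 lists of 66 genes, and most of them were also lowest in Sham2: 11 of 14 structural genes, 8 of 9 lipid genes, 7 of 9 transcription factors, 22 of 27 other mature genes and 5 of 7 genes of committed precursors, against 23.0% of the genes tested. The 14 other structural myelin genes were higher in TBI for 14 and lower for 0, with a median log2 fold change of 0.29, and none reached an unadjusted p under 0.05 in edgeR. Without Sham2 the list split into 10 higher and 4 lower with a median of 0.06. The 9 genes of myelin lipid synthesis were higher for 7 and lower for 2 with a median of 0.28, and without Sham2 for 3 and 6 with a median of -0.04. The 9 oligodendrocyte transcription factors were higher for 6 and lower for 3 with a median of 0.31, which was 0.07 without Sham2. Leaving out Sham1 instead raised the median to 0.59 for the structural and 0.49 for the lipid genes. No gene of these 3 lists passed the call rule or an unadjusted p under 0.05 in edgeR with all libraries, while DESeq2 with its defaults gave Hapln2 of the structural list an unadjusted p of 0.0250.

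Among the 27 other mature oligodendrocyte genes, 4 had an unadjusted p under 0.05 (edgeR), all higher in TBI, where 2.16% of the genes tested were, and none passed the call rule in edgeR. The median of the 27 was 0.29, and 0.08 without Sham2, where 3 had such a p, and 0.59 without Sham1. These 4 were Klk6, Apod, Dbndd2 and Trf. Trf was lowest in Sham2 by a small margin, at 228 CPM against at least 235 CPM elsewhere. Klk6, Apod and Dbndd2 were not lowest in Sham2. Klk6, a secreted serine protease of oligodendrocytes, stood at 4.86, 5.33 and 4.40 CPM in sham and at 30.7, 12.6 and 23.4 CPM in TBI. Each TBI library lay above each sham library, Sham2 was level with the other sham libraries, and the log2 fold change was 2.19 (SE 0.339), and 2.26 without Sham2. Apod, a lipid-binding lipocalin, stood at 138, 179 and 133 CPM in sham and at 306, 316 and 285 CPM in TBI. Its groups did not overlap either, and its log2 fold change was 1.01 (SE 0.145), and 1.16 without Sham2. DESeq2 with its defaults called Klk6 and Apod and no other gene of the list, with adjusted p of 5.81e-06 and 0.000242, whereas edgeR gave both an adjusted p of 0.982. On the genes kept by the edgeR filter DESeq2 called 3 of the list, Dbndd2 being the other. The study also lists these 2 genes from the same libraries, so they are not independent evidence.

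Dbndd2, a dysbindin domain protein, stood at 161, 171 and 152 CPM in sham and at 271, 219 and 324 CPM in TBI, with no overlap and a log2 fold change of 0.75, or 0.79 without Sham2. Trf, the iron carrier transferrin, stood at 238, 228 and 235 CPM in sham and at 463, 270 and 307 CPM in TBI, and its log2 fold change of 0.57 was 0.30 without TBI1. Of the 7 genes of committed precursors 6 were higher and 1 was lower, and Bcas1, a marker of oligodendrocytes that begin to myelinate, had an unadjusted p of 0.0180 (edgeR). Bcas1 stood at 388, 230 and 338 CPM in sham and at 574, 458 and 474 CPM in TBI, a log2 fold change of 0.66 with all libraries and 0.47 without Sham2. The list had a median of 0.24, and of 0.08 without Sham2. Hapln2, a matrix link protein at nodes of Ranvier, stood at 23.8, 9.22 and 22.6 CPM in sham and at 31.5, 29.2 and 39.0 CPM in TBI. Its groups did not overlap, and its log2 fold change was 0.84 (unadjusted edgeR p 0.0533) and 0.52 without Sham2 (0.0260).

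**Figure D4:**
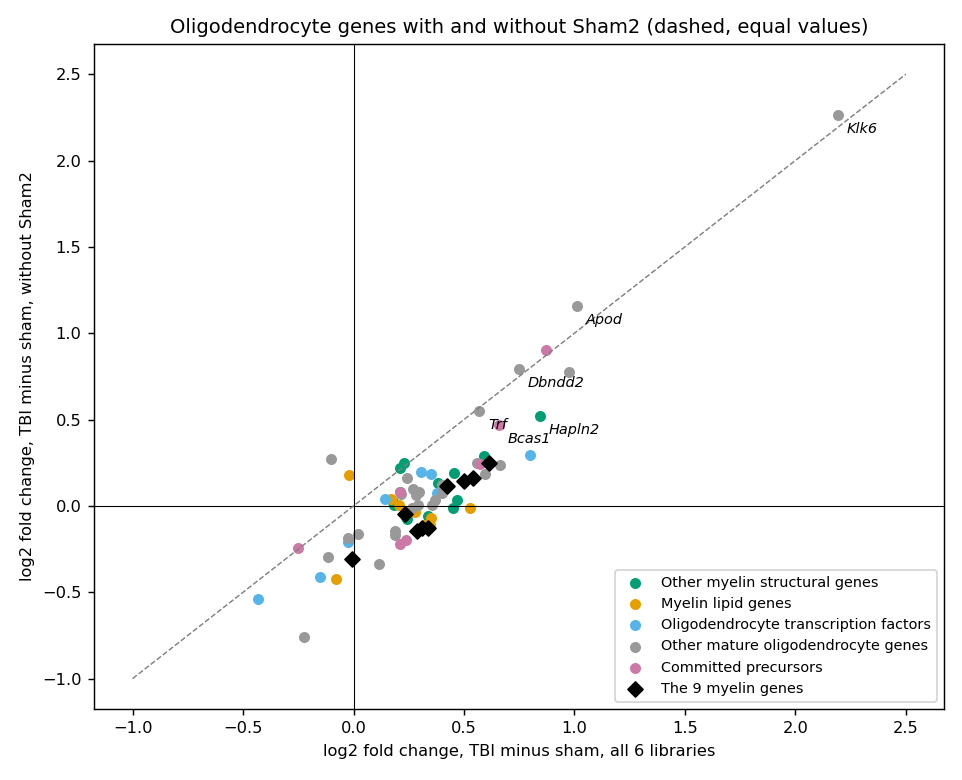
Log2 fold change of TBI minus sham for the 9 members (black) and the 66 genes of 5 oligodendrocyte lists (colours), with all 6 libraries on the horizontal axis and without Sham2 on the vertical axis; the dashed line marks equal values. The members lie below the line and around 0 on the vertical axis, while Klk6, Apod and Dbndd2 lie near the line.

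The 6 markers of OPCs had a mean level of -0.28 (log2) in Sham2, which was mostly set by Gpr17, a receptor of cells leaving the precursor stage, at 13.9 CPM in Sham2 against 53.3 and 73.6 CPM in Sham1 and Sham3. Gpr17 is also in the list of committed precursors. Pdgfra, the growth factor receptor that defines OPCs, stood at 85.3, 75.2 and 68.1 CPM in sham and at 76.6, 71.6 and 57.6 CPM in TBI, so Sham2 lay inside the sham range and the log2 fold change was -0.15 (SE 0.153). The ratio of Mbp to Pdgfra was 9.24 in Sham2 and 25.0 to 37.2 in the other libraries. Over the 6 OPC markers the median log2 fold change was 0.15. Lhfpl3 was higher and C1ql1 lower at an unadjusted p under 0.05 (edgeR), which 4.29% of the genes tested reached in either direction. Without Sham2 the median turned to -0.11 and 0 of 6 reached that p, against 3.39% of the genes tested. The log2 fold change then moved from 0.46 to 0.41 for Lhfpl3 (p 0.0857 in edgeR) and from -0.41 to -0.34 for C1ql1 (p 0.115 in edgeR). Of the transcription factors, Olig2, which OPCs also express, stood at 34.8 CPM in Sham2 against 46.3 and 42.5 CPM in the other sham libraries, and Olig1 at 97.5 CPM against 240 and 212 CPM. The mean level of the oligodendrocyte lists relative to the sham mean was lowest in Sham2 for each, at -1.12 (log2) for the members, -1.01 for the lipid genes and -0.61 to -0.70 for the other 4 lists.

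Markers of other cells and regions were compared in the same libraries, and their part in the members' levels was not tested. An unadjusted p under 0.05 in edgeR was reached by 4.29% of the genes tested with all libraries and by 3.39% without Sham2. The 8 neuronal markers summed to 5863 to 6074 CPM in sham and 5252 to 5461 CPM in TBI. Of the 8, 4 had a log2 fold change above 0 and 4 below 0. Slc17a7, the glutamate transporter of excitatory neurons, was the 1 of 8 at an unadjusted p under 0.05 (edgeR, log2 fold change -0.79, and -0.68 without Sham2). Without Sham2 and TBI1 its log2 fold change was -0.52 and 0 of 8 reached that p. Gad2 moved the other way, with a log2 fold change of 0.79 with all libraries and 0.15 without Sham2 and TBI1. It stood at 518 CPM in TBI1 and at 153 to 204 CPM in the other libraries. The 6 astrocyte markers, Gfap among them, summed to 6029 to 7730 CPM in sham and 5946 to 6765 CPM in TBI, and 0 of 6 reached that p with or without Sham2. These sums hide opposite moves, since 4 of 6 astrocyte markers were lowest in Sham2, where Gfap was highest. Gja1, the astrocyte gap junction protein, stood at 99.2 CPM in Sham2 and at 329 and 326 CPM in Sham1 and Sham3, and Slc1a2, a glutamate transporter, at 2013 CPM against 3751 and 3091 CPM. The 6 microglial markers summed to 240 to 325 CPM in sham and 246 to 485 CPM in TBI with 0 of 6. Without Sham2, 1 of 6 reached that p. This was Cx3cr1, the fractalkine receptor, with a log2 fold change of 1.30 (unadjusted edgeR p 0.00799). DESeq2 without Sham2 called 1 of 6 (adjusted p 0.0708) and 63 of the 27618 genes it tested. The microglial markers also moved both ways in Sham2. P2ry12, a purine receptor of resting microglia, stood at 6.58 CPM in Sham2 and at 26.3 and 22.2 CPM in Sham1 and Sham3, and was the 1 of 6 that was lowest in Sham2. Relative to the mean of Sham1 and Sham3, Sham2 was at 2.63 times for Cx3cr1, 1.52 times for C1qa, 1.24 times for Csf1r, 1.03 times for Aif1 and 0.913 times for Tmem119. The 6 endothelial markers summed to 158 to 216 CPM and 207 to 227 CPM, with 1 of 6 at that p, Ly6c1, whose log2 fold change was 0.88, and 0.79 without Sham2 (unadjusted edgeR p 0.0696). Here too markers moved both ways in Sham2, with Slco1a4, a transporter of brain endothelium, at 5.01 CPM against 37.0 and 50.1 CPM in Sham1 and Sham3, and Pecam1 and Cdh5 at 1.75 and 1.80 times their mean.

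Markers of peripheral myelin, made by Schwann cells, were low. Pmp2, a fatty acid-binding protein of that myelin, was at 0 in 3 libraries and at most at 0.25 CPM. Prx, the periaxin of Schwann cells, stood at 0.86 to 2.57 CPM and Ncmap at 0.21 to 1.49 CPM, while Pmp22, which other cells also express, was well measured. Pmp22 stood at 27.6, 24.9 and 25.7 CPM in sham and at 39.8, 30.4 and 41.1 CPM in TBI, a log2 fold change of 0.51 with no overlap (unadjusted edgeR p 0.0153), and of 0.48 without Sham2. These peripheral markers other than Pmp22 were thus low in all 6 libraries, while the members of central myelin were among the abundant transcripts.

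Regional markers varied from library to library. The 6 hippocampal markers summed to 575 to 751 CPM in sham and 342 to 495 CPM in TBI, and 0 of 6 reached an unadjusted p under 0.05 (edgeR). In edgeR 2 of 6 were lower at that p without TBI1 and 4 of 6 without Sham2 and TBI1, and in DESeq2 with its defaults 3 of 6. Over all genes tested, 836 of 19319, 946 of 18863 and 1155 of 28118 had such a p in either direction in these settings. Thalamic markers summed to 84.4 CPM in Sham2 and 65.0 CPM in TBI1, against 172 to 682 CPM in the other 4 libraries. The choroid plexus markers summed to 61.2 CPM in Sham2, 237 CPM in TBI1 and 251 CPM in TBI3, against 2028 to 2360 CPM in the rest, and the 5 blood genes to 126 to 416 CPM in sham and 117 to 601 CPM in TBI.

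**Figure D5:**
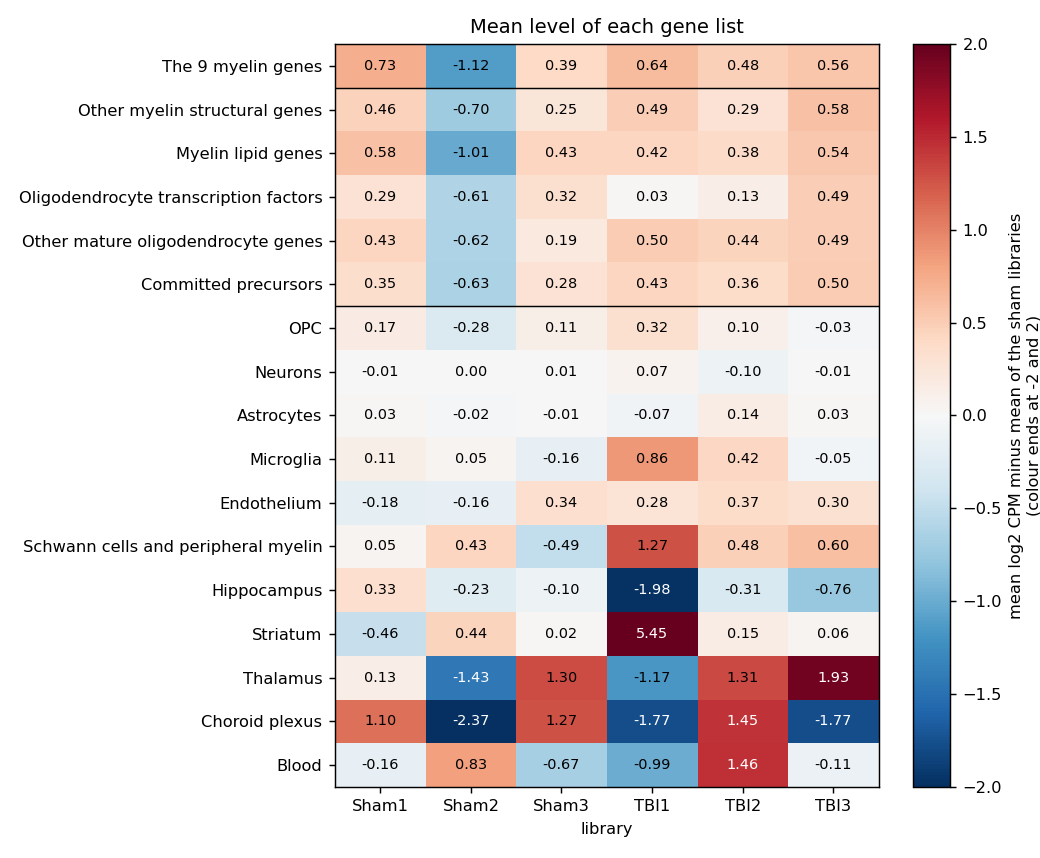
Mean log2 CPM of each gene list in each library, minus the mean of the sham libraries; red is higher and blue lower, and the colour scale ends at -2 and 2. The members and the 5 other oligodendrocyte lists are blue only in Sham2. The neuronal row is near 0 throughout but averages markers that were higher and lower in TBI. The astrocyte row averages markers that were higher and lower in Sham2, and the striatal row reaches 5.45 in TBI1.

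The genes whose levels followed the members most closely across the 6 libraries were Bmpr1b (Pearson r 0.999), Bckdha, 1190005I06Rik, Slc9a3r1, Mir7052, Pde8a, Slc48a1, Ephx1, Tspan2 and Aspa, the last with r of 0.996. Tspan2 and Aspa belong to the oligodendrocyte lists. These values are a description over 6 libraries that share the low Sham2 value. An r over 0.9 was found for 3.35% of the other genes tested and for 32 of the 66 oligodendrocyte list genes, and without Sham2 for 1.17% and for 5 of 66.

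Reads shared with a neighbouring gene could touch 3 members in the annotation. Exons of Ermn overlap 237 bases of Galnt5 on the opposite strand, those of Cnp 154 bases of Dnajc7 on the opposite strand, and those of Mobp 79 bases of Gm38642 on the same strand, which is 6.52%, 4.23% and 1.15% of the members' exonic length. Whether the counting used strand is not given in the sources used here. Galnt5 stood at 1.82 CPM in Sham2 and at 4.74 to 5.66 CPM in the other libraries, and its counts were 3.48% to 4.55% of those of Ermn in all 6. Galnt5 was low in the same library as Ermn, and whether reads of Ermn were counted for it was not tested. Dnajc7 stood at 148 CPM in Sham2 and at 125 to 170 CPM elsewhere, without the fall seen for Cnp.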

How the data were processed

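Per the labels and the methods, FastQC, HISAT2 (GRCm38) and StringTie were used by the authors for quality control, alignment and quantification, and versions are not given in the sources used here. What was deposited is 1 estimated count per gene and library, as whole numbers that were not normalized. Low values pile up at multiples of 4 (4 occurred 5109 times, 3 occurred 2325 times), so a count is not 1 read and no counting interval was computed. Of 52550 identifiers 52403 were matched to a symbol in GENCODE vM21.

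Counts were filtered with filterByExpr (18795 genes kept, all 9 members among them), scaled by TMM and tested with edgeR 4.0.16 (quasi-likelihood, Benjamini-Hochberg) in R 4.3.3, without covariates. Standard errors came from the fold change and the F statistic. Log2 CPM used a prior count of 2. The fit was tested on simulated data. Alternatives were DESeq2 1.42.0, other scalings and filters, a replicate block, leaving out each library, and, added after seeing the data, leaving out Sham2 and TBI1.

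The members and lists were chosen with earlier results of these data known. The naming rule took the members, the 4 most abundant genes and those at p under 0.05 of each oligodendrocyte list, the 10 genes most like the members, the 2 most abundant genes and the smallest p of each marker list, all Schwann genes and overlapping genes. Only those that a result turns on are described, and some are not reported here. Others named, such as the injury genes, Hapln2, Pdgfra, Gja1, Gpr17, Gad2, the microglial genes and Il33, were chosen after their values were seen.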

Additional observations from a re-analysis of the deposited data

How the results depend on the processing

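Of the 162 values of the members' log2 fold changes under alternatives, 145 kept their direction and their side of the threshold and 17 changed sign, none of them past the threshold. The members' median was 0.33 to 0.36 under the other scalings, filters and DESeq2 with all libraries, and -0.05 to 0.73 when 1 library was left out (-0.05 without Sham2, 0.73 without Sham1). With DESeq2 and Sham2 left out, the log2 fold change was -0.14 for Mog, -0.14 for Mal, -0.15 for Cnp and -0.055 for Cldn11. Without Sham2 and TBI1 it was -0.058 for Mog, -0.013 for Mag, -0.15 for Mal, -0.11 for Cnp and -0.15 for Cldn11. Opalin was 0.0095 with library totals as the only scaling. Leaving out 1 library gave -0.13 to 0.75 for Mog, -0.13 to 0.68 for Mal, -0.14 to 0.65 for Cnp, -0.046 to 0.46 for Cldn11, -0.31 to 0.52 for Opalin and -0.51 to 0.26 for Sox10, and 0.082 (without Sham2) to 0.63 (without Sham3) for the median of the committed precursors, which was 0.58 without Sham1.

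Over all genes the call rule gave 0 genes in edgeR, 43 in DESeq2 on the same genes, 46 with its defaults, 63 with Sham2 left out, 3 in edgeR without Sham2 and TBI1, and 0 to 1 with 1 library left out (1 without TBI1). The genes at an unadjusted p under 0.05 numbered 806, 483 (without Sham1) to 1130 (without TBI2) with 1 library left out, and 1155 in DESeq2 with its defaults. Of the other mature oligodendrocyte genes, DESeq2 called 3 on the filtered genes, 2 with its defaults and 2 with Sham2 left out. Of the 10 genes most like the members, 5 stayed when deviations from the group means were used. The causes of these differences were not tested.

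The replicate numbers pair the samples only by name: the deviations of same-numbered libraries correlated at -0.0996, -0.065 and 0.1528, and Sham1 and Sham2 did not correlate best with their own number. With the replicate block no gene was called, 723 had an unadjusted p under 0.05, the members' median was 0.58, and Opalin turned to 0.14. Estimated counts give no counting error, so the part of depth in the spread was not measured.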

Other observations

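A few genes of the oligodendrocyte lists did not follow the members across libraries. Il33, an alarmin that mouse oligodendrocytes also make, stood at 73.9, 133 and 66.7 CPM in sham and at 77.4, 94.8 and 82.8 CPM in TBI, so it was highest in Sham2, where the members were lowest. Its Pearson r to the mean of the members was -0.86 over the 6 libraries and 0.02 without Sham2, and its log2 fold change was -0.10 (SE 0.271) with all libraries, 0.27 without Sham2 and 0.34 without Sham2 and TBI1. Elovl1, a fatty acid elongase, was also highest in Sham2, at 18.4 CPM against at most 16.6 CPM elsewhere. Ptgds, the prostaglandin D synthase, which choroid plexus and meninges also express, stood at 487, 549 and 821 CPM in sham and at 454, 1001 and 743 CPM in TBI, with the groups overlapping.

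Sox10, a transcription factor of the whole lineage, stood at 98.2, 40.1 and 60.1 CPM in sham and at 85.8, 48.4 and 44.6 CPM in TBI. It was lowest in Sham2, but TBI2 and TBI3 lay close to Sham2, unlike for any of the 9 members. Its log2 fold change was -0.15 (SE 0.386) with all libraries and -0.41 without Sham2. Leaving out 1 library moved it between -0.51 and 0.26, so its direction was not stable. Without Sham2 and TBI1 it was -0.77 (95% interval -1.40 to -0.13, unadjusted edgeR p 0.0263, adjusted p 0.853).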
